A study of Homo sapiens with 3 samples.

Results

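The genes described here encode lysosomal enzymes, lysosomal membrane proteins and the proton pump that acidifies the lysosome, with the transcription factors TFEB and TFE3 and the lysosomal precursor protein progranulin. They were chosen by name, and every array probe whose RefSeq accession belongs to 1 of them was taken, which gave 63 probes for 49 genes of the 22439 genes named on the array. The arrays were hybridised with RNA of TK-10 cells, an established human renal carcinoma line, 1 array per condition. The control cells received 0.1% DMSO, the treated cells received cordyceps at 750 μg/ml or sunitinib at 10 μM, and each treatment lasted 48 h. All 3 cultures were kept in DMEM with fetal bovine serum, penicillin-streptomycin, nicotinamide, troglitazone and zinc sulfate, so each array shows cells of that medium. The labels name cordyceps, the fungus, where the methods of the study name cordycepin, the adenosine analog made by it. The files do not settle which was given, and the array is called the cordyceps array after its label. The label of the control names DMSO, and those of the treated arrays do not say whether DMSO was present. A single line was used, and no array was replicated.

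Lysosomes are acidic organelles in which hydrolases break down proteins, glycans, sulfated sugars and lipids that arrive by endocytosis or autophagy. The V-type ATPase pumps in the protons that these enzymes need, and heavily glycosylated membrane proteins such as LAMP1 and LAMP2 line the organelle. TFEB and TFE3 are known to activate many of these genes together through a short promoter element whose core is CACGTG. Sunitinib inhibits receptor tyrosine kinases, is used against renal carcinoma and, being a weak base, is known to collect in lysosomes, which the arrays did not measure.

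Each array held 62976 spots and 58201 probes that were not controls. Between 37.8% and 45.5% of those probes were well above background, and no spot was saturated. The 75th percentile of the processed signal was 165 on the control array, 138 on the cordyceps array and 78.2 on the sunitinib array, so each signal below was divided by that percentile of its own array and is called the relative signal. The slide (1) and the scan (1) were common to the 3 arrays. The cordyceps array had a bright area of 578 spots, and 0 of the member probes lay in it. Of the renal markers with a probe, 8 of 9 were well above background on all 3 arrays (CA9 was not), with a summed relative signal of 1368 on the control, 1158 on the cordyceps and 1515 on the sunitinib array. Of 7 leukocyte markers, 4, 1 and 2 were well above background on the control, cordyceps and sunitinib arrays, the summed relative signals were 5.19, 3.17 and 2.77, and HLA-DRA and CD3E were among those never well above background. Of 4 endothelial markers, 2, 2 and 1 were detected, with sums of 1.30, 1.22 and 1.08 and with PECAM1 and KDR never detected. Of 5 fibroblast markers, 4, 4 and 3 were detected, with sums of 43.2, 13.5 and 12.4 to which COL1A1 gave 32.2, 7.75 and 4.92, while COL1A2 was never detected. Markers more than 2-fold lower on the cordyceps array included CDH6 (log2 ratio −2.38), CDH16 (−2.24) and COL1A1 (−2.06). On the sunitinib array DCN (−3.43) and COL1A1 (−2.71) were lower, LUM was at least 9.92-fold lower, and PTPRC was higher (2.39, from a control signal near background). The fibroblast marker PDGFRB went the other way there, with a log2 ratio of 0.66. It gave 4.29, 3.77 and 6.80 to the sums of the control, cordyceps and sunitinib arrays. The part of these differences in the results below was not tested. In RNA of whole cultures, fewer cells of a kind and less RNA per cell cannot be told apart.

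Of the 49 genes, 46 were well above background on all 3 arrays. MCOLN1, the lysosomal calcium channel, and ARSB, an arylsulfatase, were well above background only on the control array. They have no fold, since their control relative signals (0.176 and 0.135) lay under the lowest one well above background on each treated array. CTSS, a cathepsin mostly of immune cells, was well above background on no array and was not compared. With 1 array per condition there was no replicate error and no test across arrays. The spread available was the error that the scanner software gives each signal, which came to a median of 0.20 on the log2 scale for a member's ratio, with a 95% limit of 0.40. It was nearly the same for most members, 0.204 for LAMP1 and GRN and 0.299 for CLN3 on the cordyceps array. The limit is therefore close to a fixed cut and not a spread measured for each gene. Repeat spots of a probe differed less, with a median SD of 0.050 to 0.063 on the log2 scale. The software error covers the reading of a spot and not the variation between cultures.

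Of the 48 members compared, 1 stood above control by more than 2-fold on the cordyceps array, LAMP3, and 0 stood below it by that much. Among all genes the shares were 2.98% above and 2.75% below. Of all genes past 2-fold 52.0% were higher, which was 77.1% with median scaling, 63.0% with no filter on dim probes and 24.7% with unscaled values. The members' median log2 ratio was 0.01, against 0.00 over all genes, and their quartiles were −0.33 and 0.11. It was 0.23 with median scaling and −0.22 with unscaled values, where the median of all genes was 0.18 and −0.24. By any amount, 24 were higher, against 46.1% of all genes, and 22 were lower. Beyond the 95% limit of the software error, 2 of 46 were higher, LAMP3 and CTSL, where 15.0% of all genes were. Below it were 9 (CTSC, CTSF, CTSK, MAN2B1, MANBA, NAGLU, SGSH, SMPD1 and ATP6V0D1), where 13.5% of all genes were.

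Of the same 48 members, 7 stood above control by more than 2-fold on the sunitinib array and 0 below it, where 6.51% of all genes were above and 6.50% below. Of all genes past 2-fold 50.03% were higher, which was 21.4% with median scaling, 28.2% with normexp, 80.8% with no filter on dim probes and 1.97% with unscaled values. They were LAMP3, CTSF, SMPD1, ASAH1, GRN, NPC2 and PSAP. The members' median log2 ratio was 0.31 with quartiles of −0.0018 and 0.78, against 0.00 over all genes, and its sign turned to −0.0013 when arrays were scaled to their median, to −0.011 with normexp background correction and to −0.74 with the unscaled values of the series matrix. The medians of all genes then were −0.31, −0.07 and −1.06, so that the members stood 0.31, 0.06 and 0.31 above them. With no filter on dim probes the median of all genes was 0.25 and the members stood 0.08 above it. Since 36 of the 48 were among the brightest 25% of genes, those 36 were also set against that 25%, a comparison added after the values were seen. There the members' median was 0.36 above that of all genes, and it lay between 0.34 and 0.38 above it under the 11 other ways of processing. Median scaling and the unscaled values shift every gene of an array by 1 amount, which leaves this difference nearly unchanged. The bright area of the cordyceps array hardly bears on it either, so the narrow range was partly fixed in advance. The difference was 0.34 with quantile normalization or normexp and 0.38 with the mean of a gene's probes. By any amount, 34 members were higher, against 45.3% of all genes, and 12 were lower. Beyond the 95% limit 18 of 46 were higher, where 22.6% of all genes were, and 2 were lower, CTSC and GLA, where 21.8% of all genes were. Both comparisons use the same control array, so they are not independent of each other.

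**Figure D1:**
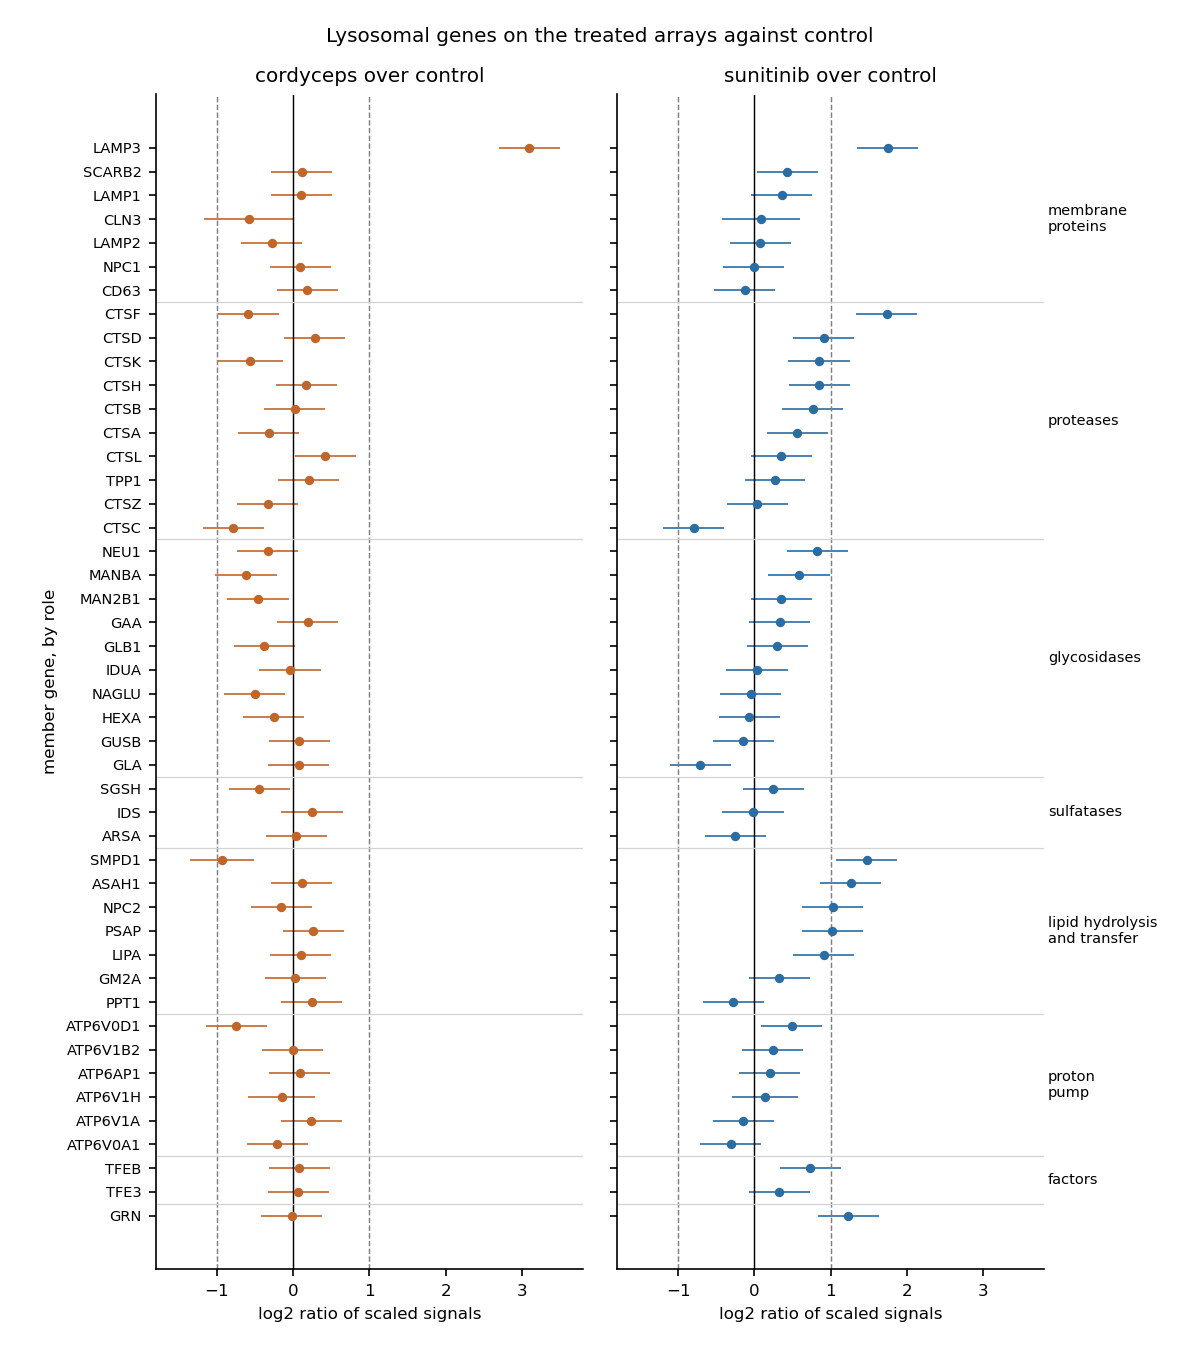
Log2 ratio of relative signals to control for the 46 members well above background on all 3 arrays, by role, with cordyceps on the left and sunitinib on the right. Points are single ratios, bars their 95% limits from the software error alone, and dashed lines mark 2-fold. LAMP3 was past 2-fold on both arrays, and 6 further genes on the sunitinib array alone, with the arrays scaled to their 75th percentile (3 of the 7 stayed past 2-fold with median scaling or normexp, and 0 with unscaled values).

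**Figure D2:**
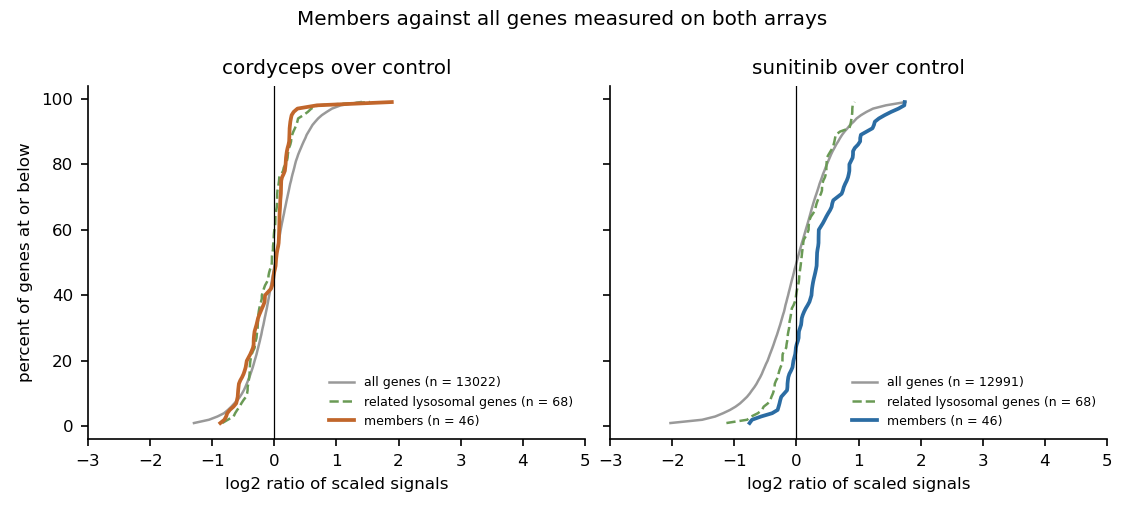
Share of genes (percent, vertical axis) at or below each log2 ratio to control (horizontal axis), from the 1st to the 99th percentile, for the 46 members, 68 related lysosomal genes and all genes well above background on both arrays. At the middle percentiles the members' curve on the sunitinib array lies to the right of the curve of all genes, and the 2 curves meet at the highest; the members had a median of 0.31 over the members compared, which was −0.0013 with median scaling, −0.011 with normexp and −0.74 unscaled.

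The 7 lipid enzymes and lipid transfer proteins had a median log2 ratio of 1.03 on the sunitinib array, and it stayed above 0 under median scaling (0.69), quantile normalization (0.92) and normexp (0.67), while the unscaled values gave −0.05. Of these, 4 were more than 2-fold higher and 5 beyond the error limit, where 6.51% and 22.6% of all genes were. Their median on the cordyceps array was 0.10, which was −0.03 with quantile normalization or normexp and −0.16 unscaled.

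SMPD1, the acid sphingomyelinase that splits sphingomyelin into ceramide and phosphocholine, had relative signals of 1.84 ± 0.186 on the control, 0.964 ± 0.106 on the cordyceps and 5.11 ± 0.513 on the sunitinib array (± software error). It was lowest on the cordyceps array and highest on the sunitinib array, with log2 ratios of −0.93 and 1.47. ASAH1, the acid ceramidase that acts on the product of SMPD1, read 18.2 ± 1.82, 19.6 ± 1.96 and 43.7 ± 4.37, a log2 ratio of 0.11 on the cordyceps and 1.27 on the sunitinib array. Its control and cordyceps signals lay within the error, and the sunitinib signal stood 2.41-fold above control. With median scaling its log2 ratio was 0.94, with normexp 0.90 and unscaled 0.19, all under 2-fold.

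NPC2, the luminal protein that binds cholesterol and passes it to NPC1, read 106 ± 10.6, 94.7 ± 9.47 and 215 ± 21.5 on the control, cordyceps and sunitinib arrays. PSAP, the precursor of the saposins that present sphingolipids to their hydrolases, read 19.0 ± 1.90, 22.8 ± 2.28 and 38.7 ± 3.87. Both were just past 2-fold on the sunitinib array, each with a fold of 2.04, and both were under 2-fold with median scaling (log2 ratios of 0.70 for NPC2 and 0.69 for PSAP) and normexp (0.67 and 0.72) and below control unscaled (−0.047 and −0.048). NPC2 was also under 2-fold with quantile normalization (0.70), and PSAP with the mean of its probes (0.94). The nearest gene inside the limit was LIPA, the acid lipase for cholesteryl esters and triglycerides, with a log2 ratio of 0.91 and relative signals of 11.6, 12.4 and 21.8. GM2A, the activator protein for GM2 ganglioside breakdown, had a ratio of 0.32, and PPT1, which removes palmitate from proteins, had the lowest of the group, −0.28. PSAP, at 0.26, was the highest of the group on the cordyceps array.

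**Figure D3:**
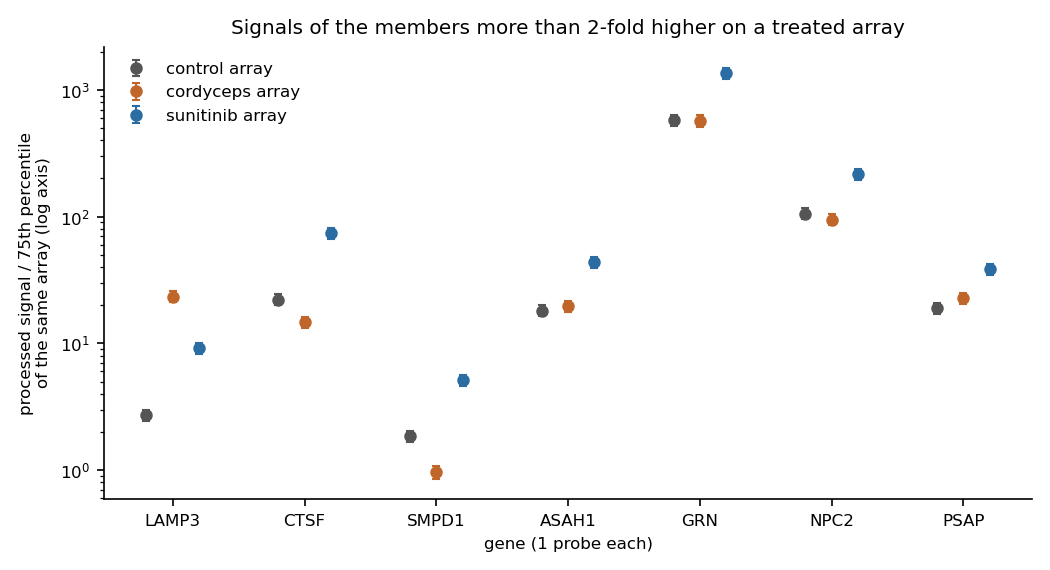
Relative signal (processed signal over the 75th percentile of the same array, log axis) of the 7 members more than 2-fold higher on a treated array, on each of the 3 arrays. Points are single arrays and bars the software error. LAMP3 was highest on the cordyceps array, at 23.4, and the other genes on the sunitinib array, where SMPD1 read 5.11 and GRN 1365.

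The membrane proteins were led by LAMP3, a LAMP family protein best known from mature dendritic cells. Its relative signals were 2.73 ± 0.274 on the control, 23.4 ± 2.34 on the cordyceps and 9.18 ± 0.919 on the sunitinib array. It was 8.55-fold higher on the cordyceps array, a log2 ratio of 3.10 that lay between 2.80 and 3.32 under every other way of processing. It was 3.36-fold higher on the sunitinib array, where the log2 ratio of 1.75 went down to 0.67 with unscaled values. LAMP3 is the lone member past 2-fold on both treated arrays. Among the leukocyte markers, CD14 read 4.21, 2.71 and 1.48 on the control, cordyceps and sunitinib arrays and made up most of the summed signal on the control array. PTPRC, by 1 of its 5 probes, was 5.23-fold higher on the sunitinib array than in control, from 0.112 to 0.585. Its unscaled control signal, 18.4, was close to the lowest well above background on that array, 18.2. CSF1R and ITGAM were lower on the sunitinib array, at least 1.09-fold and 1.88-fold. The part of these markers in the LAMP3 ratios was not tested.

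By the probes used, the other membrane proteins with a fold lay within 2-fold of control. LAMP2 had log2 ratios of −0.28 and 0.08 on the cordyceps and sunitinib arrays, and its other probes, which differed, are given below. LAMP1, one of the most abundant lysosomal membrane proteins, read 291, 314 and 374, with log2 ratios of 0.11 on the cordyceps and 0.36 on the sunitinib array. The latter turned below 0 with quantile normalization, normexp or unscaled values. SCARB2, the receptor that carries glucocerebrosidase to the lysosome, had 0.11 and 0.43, the latter just beyond its error limit. CLN3 was the lowest on the cordyceps array, at −0.58 with a limit of 0.59, and CD63, a tetraspanin, the lowest on the sunitinib array, at −0.13. NPC1, the cholesterol exporter that takes over from NPC2, had 0.09 and −0.01, so its ratio on the sunitinib array was within the error where that of NPC2 was beyond it.

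The proteases had a median log2 ratio of 0.66 on the sunitinib array over 10 genes, with 9 higher than control, 6 of them beyond the error limit, where 45.3% and 22.6% of all genes were. The median was 0.33 with median scaling, 0.53 with quantile normalization, 0.26 with normexp and −0.41 with unscaled values. CTSF, the cysteine cathepsin F, was the highest, with relative signals of 22.2 ± 2.22, 14.7 ± 1.47 and 73.8 ± 7.38 on the control, cordyceps and sunitinib arrays. That is a log2 ratio of −0.59 on the cordyceps array and 1.74 on the sunitinib array, 3.33-fold above control.

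CTSD, the main aspartic protease of the lysosome, read 47.9, 58.4 and 90.0, with log2 ratios of 0.29 and 0.91. CTSK, the collagen-degrading cathepsin, had ratios of −0.57 and 0.85. CTSH, an aminopeptidase, had 0.17 and 0.85, and CTSB had 0.02 and 0.77. All of these were beyond the error limit on the sunitinib array but under 2-fold. CTSA, which also shields neuraminidase and β-galactosidase, had −0.32 and 0.56.

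CTSC, the dipeptidyl peptidase that activates serine proteases of immune cells, was the 1 protease below control on the sunitinib array. It read 23.4 on the control and 13.5 on each treated array, a log2 ratio of −0.79 on both. It had the lowest ratio of the members on the sunitinib array, and the lowest of the proteases on the cordyceps array. CTSL had the highest ratio of the proteases on the cordyceps array, 0.42, just past its limit of 0.40. Over the 10 proteases the cordyceps median was −0.15, and it was 0.07 with arrays scaled to the median, −0.34 with quantile normalization, −0.23 with normexp and −0.40 with unscaled values.

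The glycosidases, which trim sugars from glycoproteins and glycolipids, had a median log2 ratio of −0.30 over 10 genes on the cordyceps array, and it was below 0 under the other scalings as well, from −0.07 with median scaling to −0.55 with unscaled values. Of these, 7 were lower than control, where 7089 of 14765 of all genes were. Lower beyond the error limit were 3 (MANBA, MAN2B1 and NAGLU, with −0.62, −0.46 and −0.50), where 13.5% of all genes were. MANBA and MAN2B1 are lysosomal mannosidases, and NAGLU acts on heparan sulfate. GAA, the acid glucosidase that breaks down glycogen, had the highest ratio there, 0.19.

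The median of the glycosidases on the sunitinib array was 0.17, and it was −0.16 with median scaling, −0.13 with normexp and −0.91 unscaled. NEU1, the lysosomal sialidase, was the highest, with relative signals of 28.5, 22.6 and 50.4 and a log2 ratio of 0.82. GLA, the α-galactosidase lacking in Fabry disease, was the lowest, with 15.1, 15.9 and 9.27, a ratio of −0.71. NEU1 and MANBA (0.58) were above control beyond the error, and GLA was below it.

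The sulfatases, which remove sulfate from glycosaminoglycans and sulfatides, gave ratios of −0.44 (SGSH) to 0.25 (IDS) on the cordyceps array and of −0.25 (ARSA) to 0.25 (SGSH) on the sunitinib array. Beyond the error limit was only SGSH on the cordyceps array. ARSB, the other member of the group, has no fold.

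The 6 proton pump genes had a median log2 ratio of 0.17 on the sunitinib array, and −0.16 with median scaling or normexp and −0.90 unscaled. Their cordyceps median was −0.08, and 0.14 with median scaling. ATP6V0D1, the subunit that joins the membrane sector to the central stalk, read 11.9, 7.09 and 16.8. It was the lowest on the cordyceps array, at −0.75, and the highest on the sunitinib array, at 0.49, and it alone of the 6 was beyond the error limit. ATP6V1A, which holds the catalytic sites for ATP, had 0.24 on the cordyceps and −0.15 on the sunitinib array, and the membrane subunit ATP6V0A1 had −0.21 and −0.31. With the further subunits of a list of 25 pump genes, 19 could be compared, with medians of −0.02 on the cordyceps and 0.08 on the sunitinib array, and none was more than 2-fold higher on either. The 13 compared that are no members had a sunitinib median of −0.12, with 6 higher and 7 lower than control. ATP6V0A4, a kidney form of the membrane subunit and no member, was at least 2.13-fold lower on the sunitinib array, from a relative signal of 0.499 on the control array.

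GRN encodes progranulin, a secreted glycoprotein that is cut into granulins in the lysosome. It had relative signals of 579.9 ± 58.0 on the control, 572 ± 57.2 on the cordyceps and 1365 ± 136 on the sunitinib array. The control and cordyceps signals lay within the error, and the sunitinib signal was 2.35-fold above control. The log2 ratio of 1.23 was 0.55 with quantile normalization, 0.90 with median scaling, 0.88 with normexp and 0.16 with unscaled values, all under 2-fold.

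Of the 2 transcription factors, TFEB read 16.1, 17.0 and 26.9, with log2 ratios of 0.08 on the cordyceps and 0.73 on the sunitinib array. TFE3 had 0.07 and 0.33, and of the probes used only that of TFEB on the sunitinib array was beyond the error limit. A second TFEB probe gave −0.47 and 0.47, both beyond a limit of 0.40, and a second TFE3 probe gave −0.37 and −0.29. The TFE3 probes thus lay on both sides of 0 on each treated array, and the TFEB probes on the cordyceps array. The median of the 2 on the sunitinib array, 0.53, was 0.20 with median scaling, 0.14 with normexp and −0.54 unscaled. TFE3 was below control there in each of these, and TFEB unscaled (−0.34). On the cordyceps array each ratio changed sign in 4 of 11 alternatives. The arrays measured transcripts and not where these proteins were in the cell.

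The promoters of the genes were read for the core of the TFEB and TFE3 element, CACGTG, which reads the same on both strands, and for the longer form TCACGTGA, which contains it. The window ran from 250 bases before to 50 bases after the transcript start in RefSeq's GRCh38.p14, and 34 of the 49 members were in that table. CACGTG stood in 11 of 34 windows (32.4%), against 18 of 64 windows of the related lysosomal genes described last (28.1%) and 2396 of 27305 over all genes (8.77%). TCACGTGA stood in 6 of 34 (17.6%), against 9 of 64 (14.1%) and 321 of 27305 (1.18%). The 11 were LAMP1, CD63, MCOLN1, CLN3, CTSA, CTSD, CTSF, GAA, NEU1, ARSB and ATP6V0D1. A match is a string of letters and not a site at which binding was measured.

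The median log2 ratio on the sunitinib array was 0.36 for the 11 members with CACGTG, 0.30 for the 23 with a window and no match, and 0.25 for the 14 compared that were not in the table. Over all genes with CACGTG it was −0.01. The 3 groups of members gave medians on the cordyceps array of 0.00, 0.07 and −0.08. Of the 7 genes more than 2-fold higher on the sunitinib array, CTSF had a match, SMPD1, NPC2 and GRN had none in this window, and LAMP3, ASAH1 and PSAP were not in the table. The 250 bases before the start are shown for CTSF, which had the highest sunitinib ratio among the members with a match, and for LAMP1, which had the most matches and a ratio of 0.36, with CACGTG in capitals. The CTSF window (chr11:66568607-66568856, minus strand) holds 2 matches and that of LAMP1 (chr13:113296989-113297238, plus strand) holds 5.
CTSF: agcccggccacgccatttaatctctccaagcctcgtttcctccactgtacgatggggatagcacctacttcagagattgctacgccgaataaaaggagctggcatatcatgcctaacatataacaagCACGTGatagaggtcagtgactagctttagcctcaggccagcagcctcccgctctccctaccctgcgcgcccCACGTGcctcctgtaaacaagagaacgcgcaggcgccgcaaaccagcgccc
LAMP1: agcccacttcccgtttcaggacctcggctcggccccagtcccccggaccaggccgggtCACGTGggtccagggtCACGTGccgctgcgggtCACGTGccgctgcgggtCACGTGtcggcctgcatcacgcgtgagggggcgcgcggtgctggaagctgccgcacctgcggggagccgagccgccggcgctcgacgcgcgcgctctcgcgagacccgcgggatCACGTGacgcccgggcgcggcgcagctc

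Other matches are shown as 30 bases each, with CACGTG again in capitals, for members whose ratios on the sunitinib array ran from beyond the error limit to no fold. They come from CTSD (chr11:1763957-1763986, minus strand, sunitinib ratio 0.91), NEU1 (chr6:31862930-31862959, minus strand, 0.82), CTSA (chr20:45891298-45891327, plus strand, 0.56), ATP6V0D1 (chr16:67481199-67481228, minus strand, 0.49), GAA (chr17:80101538-80101567, plus strand, 0.33) and MCOLN1 (chr19:7522598-7522627, plus strand, no fold).
CTSD: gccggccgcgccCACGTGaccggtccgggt
NEU1: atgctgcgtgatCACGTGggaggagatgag
CTSA: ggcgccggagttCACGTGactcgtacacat
ATP6V0D1: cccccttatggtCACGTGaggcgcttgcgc
GAA: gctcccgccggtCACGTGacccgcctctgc
MCOLN1: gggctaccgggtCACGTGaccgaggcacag

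Of the members, 39 had 1 probe and 10 had several, 24 in all, of which the brightest over the 3 arrays was used. Of the 14 probes not used, 3 were more than 2-fold higher on the sunitinib array, and they belong to LAMP2, TPP1 and GM2A, whose used probes were not. By the probes used, 6.51% of all genes were. A share over all probes not used is not given, so this count cannot be weighed. LAMP2 showed the widest spread. Its probe named by the accession of isoform A, the receptor of chaperone-mediated autophagy, read 5.22, 4.17 and 14.0 on the control, cordyceps and sunitinib arrays, a log2 ratio of 1.42 on the sunitinib array. The probe named by isoform B gave −0.62 there, and that named by isoform C, which was the brightest and the one used, gave 0.08. The probe sequences were not used here, so which isoforms each probe binds was not checked.

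TPP1, the tripeptidyl peptidase, had a used probe at 0.27 on the sunitinib array and another at 1.04 for the same transcript accession. GM2A had 0.32 and 1.03, the latter from a probe with a control relative signal of 0.740. For PSAP the probes gave 1.03 and 0.85, and for CTSA 0.56 and 0.78. On the cordyceps array 1 of the 14 was more than 2-fold lower, a CTSC probe at −1.35, beside −0.79 for the used probe and −0.60 for the remaining one. By the probes used, 2.75% of all genes were. All 3 CTSC probes were below control on both treated arrays. Probes of a gene lay on both sides of 0 for 5 of the 10 on the cordyceps array and for 3 on the sunitinib array.

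**Figure D4:**
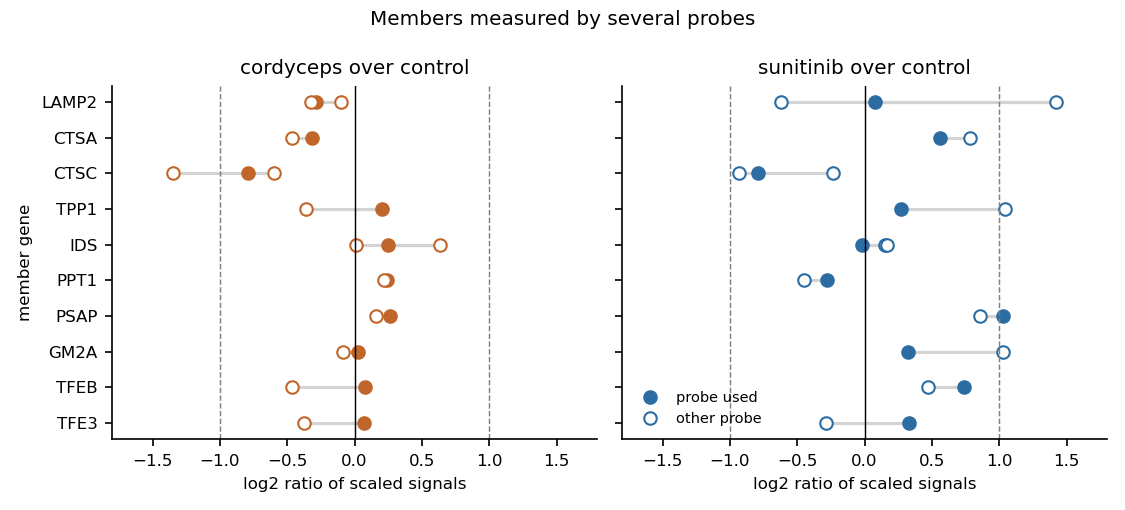
Log2 ratio to control of every probe that could be compared for the 10 members with several probes, with cordyceps on the left and sunitinib on the right. Filled points are the probes used, open points the others, and dashed lines mark 2-fold. The LAMP2 probes ran from −0.62 to 1.42 on the sunitinib array, and the TPP1 and GM2A probes not used were past 2-fold there.

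A list of 83 further lysosomal genes was described in the same way, of which 70 could be compared. On the sunitinib array 1 was more than 2-fold higher, RRAGA, a GTPase that anchors mTORC1 at the lysosome (log2 ratio 1.00), and 2 were lower, ATP6V0A4 as above and CTSV, a cathepsin close to CTSL (−1.73). Of all genes, 6.51% were higher and 6.50% lower by that much, so few of the related genes were called. The median of the related genes was 0.06, and 20 of 68 measured were higher beyond the error limit and 7 lower, where 22.6% and 21.8% of all genes were. On the cordyceps array 1 was more than 2-fold higher, M6PR, a mannose 6-phosphate receptor that carries hydrolases to the lysosome (3.12), whose probe lay in the bright area. None was more than 2-fold lower. Of all genes, 2.98% were higher and 2.75% lower by that much. The median of the related genes was −0.06, and the lowest was HGSNAT, an acetyltransferase of heparan sulfate breakdown, at −0.92. With the bright area left out, 0 of the related genes were past 2-fold on the cordyceps array.

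**Figure D5:**
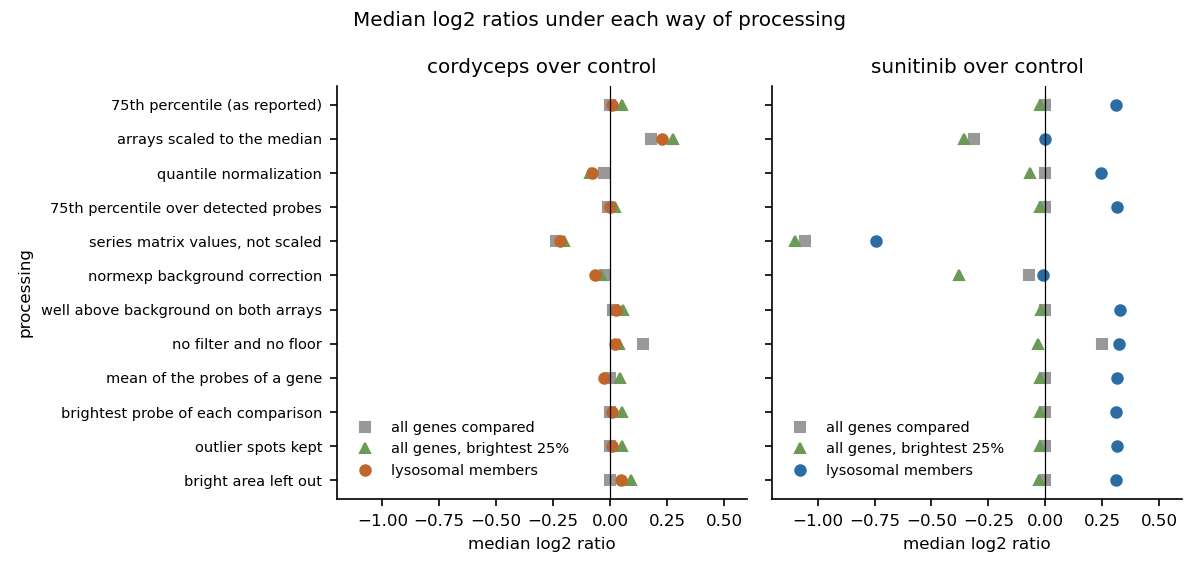
Median log2 ratio to control (horizontal axis) of the members, of all genes compared and of the brightest 25% of all genes, under each way of processing (vertical axis), with cordyceps on the left and sunitinib on the right. On the sunitinib array the median of the members compared ran from −0.74 with unscaled values to 0.33. The members among the brightest 25%, which are not drawn apart, had medians 0.34 to 0.38 above that of all genes of that 25%. Ways of processing that shift a whole array by 1 amount leave this difference nearly unchanged.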

How the data were processed

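Total RNA of 3 TK-10 cultures was labelled with Cy3 and hybridised to 3 one-colour Agilent arrays. The authors deposited 1 scanner file per array, made with Feature Extraction 11.5.1.1 and naming genome build hg19, whose processed signal is an intensity on a linear scale after background subtraction and spatial detrending within the array. Flags of 0 or 1 deposited beside it mark spots well above background, saturated or outlying. The authors also deposited a table of intensity values for all probes, of which 99.87% to 99.92% per array equalled the mean processed signal within 0.01%, not scaled between arrays and with medians of 14.4, 10.3 and 8.58. The methods of the study describe a two-colour array of another maker and do not mention sunitinib, so they were used for the 2-fold limit alone.

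Control spots and outlying spots (63 to 121 per array) were left out, repeat spots of the same probe were averaged, and each signal was divided by the 75th percentile of its array before log2 was taken. Accessions were looked up in RefSeq's gene table (GRCh38.p14, names only), and 31104 of 58201 probes received a gene. For each gene the probe with the highest mean relative signal over the 3 arrays was used in both comparisons. A gene was compared where 1 or both arrays of a comparison had that probe well above background. Where the dimmer one did not, the fold is a bound against the higher of the probe's own signal and the lowest signal well above background, and genes whose bound was not above 1 have no fold and a log2 ratio of 0 in medians. The software error of both signals was combined into an error of each ratio. Repeat spots of 300 probes had a median SD of 0.050 to 0.063 on the log2 scale. The bright area was found with windows of 7 by 7 spots. Promoters were searched on both strands. There was no test, since each condition had 1 array, and precision is limited by this number of arrays.

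Members more than 2-fold from control were named with all 3 signals, the highest and lowest member of each role was named, and TFEB, TFE3 and GRN were named in any case. Of the related genes and cell markers at most 3 past 2-fold in each direction were named. The members, gene lists, rules and alternatives were chosen with earlier results of these data known. The alternatives changed the scaling, the background correction (normexp of limma 3.58.1, offset 50, on the median spot and background intensity), the filter on dim probes, the choice among probes, outlying spots and the bright area. The scripts ran in Python 3.11.15 (numpy 2.4.6, pandas 2.3.3) and R 4.3.3 and were tested on simulated data.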

Additional observations from a re-analysis of the deposited data

How the results depend on the processing

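No paired analysis was possible because each condition had 1 array. LAMP3 was the 1 member more than 2-fold higher on the cordyceps array under all 11 alternatives. With unscaled series matrix values 3 members were lower there (ATP6V0D1, CTSC and SMPD1), where 5.64% of all genes were. The members' median then was −0.22, against 0.23 with median scaling. On the sunitinib array the members higher, 7 in the values reported, were 3 with median scaling, 3 with normexp and 0 unscaled. Those lower were 2 (CTSC and GLA), the same 2, and 14. In the same order, 3.52%, 2.21% and 1.08% of all genes were higher, and 12.9%, 5.63% and 53.8% were lower. The members' medians were −0.0013, −0.011 and −0.74. Median scaling and the unscaled values shift every gene of an array by 1 amount, while the cause of the lower ratios with normexp was not tested. NPC2 (−0.047) and PSAP (−0.048) were below control unscaled. CTSF, LAMP3 and SMPD1 stayed past 2-fold in 10 of 11 alternatives, ASAH1 in 8, and GRN, NPC2 and PSAP in 7. Without the filter on dim probes CTSS was also past 2-fold. All of the 7 but PSAP had 1 probe, well above background on each array. The filter on dim probes, the choice among probes and the bright area could not change their sunitinib ratios. Those alternatives are no check on these genes, so the counts overstate how stable they were. Related genes higher on the cordyceps array were 3 without the filter and 0 without the bright area, where 7.30% and 2.64% of all genes were. Those lower were 1 with quantile normalization, 2 unscaled and 1 without the filter, where 2.72%, 5.64% and 4.29% of all genes were. On the sunitinib array related genes higher were 0 with median scaling, quantile normalization, normexp or unscaled values, where 3.52%, 6.33%, 2.21% and 1.08% of all genes were. They were 7 without the filter and 2 with the mean of a gene's probes, where 28.1% and 6.33% of all genes were higher. Related genes lower there were 4 with median scaling, 36 unscaled and 1 where both arrays had to be well above background. Of all genes, 12.9% were lower with median scaling, 53.8% unscaled and 5.77% where both arrays had to be well above background. A signal near background limits what can be said of MCOLN1, ARSB and CTSS. With 1 array per condition, differences between cultures or hybridisations cannot be told apart from the treatments.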

Other observations

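Among the related lysosomal genes, the other hydrolases had a median log2 ratio of 0.07 over 19 genes on the sunitinib array, with 5 higher and 3 lower beyond the error limit, where 22.6% and 21.8% of all genes were. The lowest was CTSV, with relative signals of 2.18, 1.81 and 0.655 on the control, cordyceps and sunitinib arrays. Among 12 other membrane proteins the median was 0.00, and the ratios ran from TPCN1, a two-pore channel of the endolysosomal membrane, at −0.73 to CTNS, the cystine exporter, at 0.87. The 6 genes that sort hydrolases to the lysosome had a median of 0.04, led by NAGPA, which uncovers the mannose 6-phosphate tag, at 0.90 (9.69, 7.19 and 18.1).

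The genes of nutrient sensing and TFEB control had a median of 0.13 over 18 genes on the sunitinib array, with 6 higher and 0 lower beyond the limit against the same shares. RRAGA led them with 17.1, 19.1 and 34.3. On the cordyceps array the group's median was −0.06, with 1 higher and 1 lower beyond the limit, where 15.0% and 13.5% of all genes were, and the highest was LAMTOR2, a subunit of the scaffold that holds the Rag GTPases, at 0.77. The medians of these groups were not computed under the other scalings. The median of all genes on the sunitinib array was −0.31 with median scaling and −1.06 unscaled.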
